A study of Mus musculus with 34 samples.

Results

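Mesoderm and endoderm derived in culture from the mouse ES cell line EB5 are compared here for methylation of CpG islands. The arrays were chosen by their labels and make up 3 of the 34 in the series: mesoderm on 1 array, and endoderm on 2, replicates 1 and 2. Both cell types came from 1 targeted derivative of EB5 whose Gsc and Sox17 genes carry reporters. The culture used Activin A, no serum and a collagen surface, and flow cytometry then separated the cell types. Endoderm was the fraction positive for Gsc, Sox17 and E-cadherin, and mesoderm the fraction positive for Gsc but negative for Sox17 and E-cadherin. What is called mesoderm is therefore a sorting gate of 1 targeted line in 1 culture scheme, not a tissue. Undifferentiated EB5 cells were run on 1 array. Organs of 8 kinds from adult mice aged 3 months, of strain C57Bl/6 per the paper, were run on 16, and both serve as reference values. A few values are also given for ES cells of line TT2, embryoid bodies, cells treated with retinoic acid and teratomas. By the labels, the embryoid bodies and the treated cells came from TT2 and the teratomas from line J1.

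CpG islands lie at the starts of most mouse genes and usually stay free of methylation, whether or not the gene is active. Methylation of an island goes with stable silencing, as on the silent allele of an imprinted gene or at germ-line genes in somatic cells. In the embryo, Nodal signalling, which Activin mimics in culture, leads cells of the primitive streak to mesoderm or definitive endoderm, and Sox17 and E-cadherin mark the endodermal branch.

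Each array compares DNA bound by an antibody to methylated cytosine with input DNA. The log ratios of an array were standardised to Z scores, and the mean Z of the probes of an island is its island methylation score (IMS). The study also took the melting temperature of probes into account, which was not done here, so the scores are not the same as the study's. With the study's thresholds, an IMS below 0 is read as unmethylated and one above 0.75 as methylated. Of 13714 islands scored on the 3 arrays, 2197 were above 0.75 in mesoderm, against 2303 and 2308 in endoderm and 1466 in EB5. All 3 arrays had 1792 islands above 0.75 and 6119 below 0 in common. No island was above 0.75 in mesoderm and below 0 on both endoderm arrays, and 13 showed the opposite. Mesoderm and endoderm thus share most of the islands that are methylated. The differences described next are mostly shifts in degree at single islands, with a change from one class to the other at few. One of the reference arrays needs care: the input of pancreas replicate 2, which shares a slide with EB5, has the chromosome profile of EB5 and not of the other 15 adult arrays. Without it the adult medians of the islands named by rule moved by at most 0.19, and that of Kat2a, chosen later, moved from 0.99 to 0.78.

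The lone mesoderm array is on another probe grid than endoderm. It lay no farther from endoderm than replicate arrays on different grids lie from each other in 6 tissues. The SD over islands of mesoderm minus endoderm was 0.475 for replicate 1 and 0.310 for replicate 2, and that between the endoderm arrays was 0.416. In the 9 other replicated groups the same SD ran from 0.254 (colon) to 0.535 (liver), and 6 of the 9 exceeded 0.475. These 6 (brain, kidney, liver, lung, muscle and spleen) have their replicates on different probe grids, as mesoderm and endoderm are. Colon, teratoma (0.255) and pancreas (0.319) have both replicates on the same grid, as endoderm does. Mesoderm was nearer to endoderm replicate 2 than the endoderm arrays were to each other. Nothing in the labels says whether the endoderm replicates are separate cultures. Their input DNA differed on chromosome 14 from 60 Mb on, with -0.065 in replicate 1 and 0.33 in replicate 2. The cause of that difference was not tested. With 1 array against 2, the precision of any single island is limited by the spread between replicate arrays. Mesoderm was the only array of the series on its slide, as endoderm replicate 1 was on another slide. Mesoderm had a smaller probe grid than endoderm, so slide, grid and cell type cannot be told apart.

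**Figure D1:**
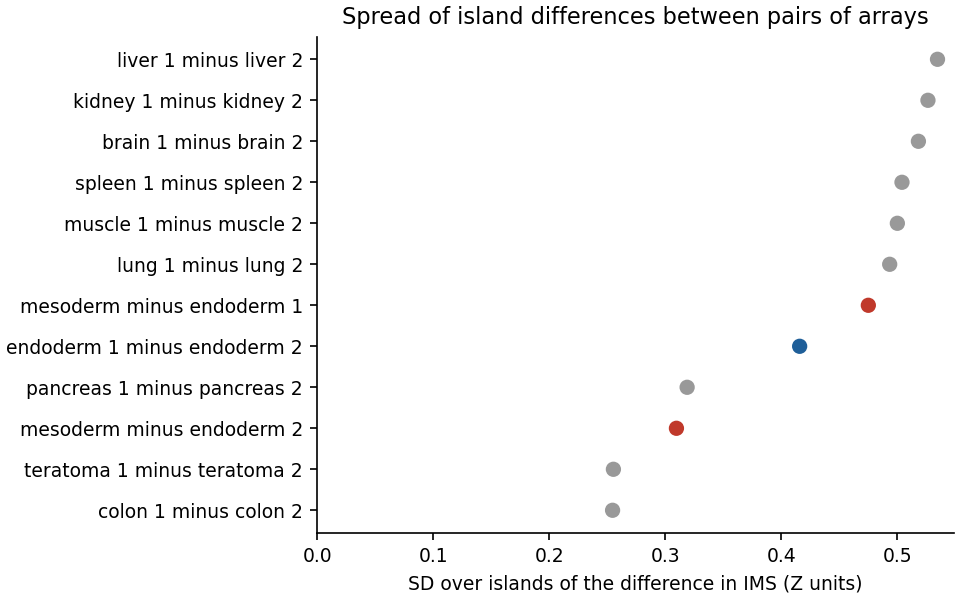
SD over islands of the difference in island methylation score between pairs of arrays. Red: mesoderm minus each endoderm array; blue: endoderm replicate 1 minus 2; grey: replicates of other groups.

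In limma over all 13714 islands, 0 passed an adjusted p under 0.05, either higher (0%) or lower (0%) in mesoderm. At an unadjusted p under 0.05, 541 islands were listed, 100 higher and 441 lower. The equal-variance test of the study's methods also gave 0 after Benjamini-Hochberg adjustment and 555 without it (295 higher, 260 lower). Limma with the spread pooled over all arrays gave 0 and 730 (342 higher, 388 lower). On scores from probes with bright input, described below, limma gave 0 and 262, of which 194 were higher and 68 lower, so the balance of sides depends on the test and the probes. Among the 9060 islands with at least 5 probes, limma called 9, all lower in mesoderm. They were those of the signalling ligand Bmp4, the homeobox genes Meis2 and Nkx6-2, the neuropeptide gene Adcyap1, the gene Rhobtb1, the clustered protocadherin gene Pcdhgb8, the developmental gene Mab21l2, the histone gene H2ac10 and 1 island without a gene name. Over the whole table no island can be said to have changed, and the values that follow are given as measured.

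Sizes were therefore read against both endoderm arrays: the gap of an island is its mesoderm IMS minus that of the nearer endoderm array, and is 0 where mesoderm falls between them. Mesoderm lay 0.5 or more above both on 146 islands (1.06%) and 0.5 or more below both on 525 (3.83%). The side with more islands turned with normexp background correction (674 above, 617 below). It also turned on the authors' deposited scores, with 73 above and 57 below of 10387. The endoderm arrays differed from each other by 0.5 or more on 2952 islands (21.5%). That is a difference of 1 pair, which is wider by construction than a gap from the nearer of 2 arrays. As a pair, mesoderm and endoderm replicate 1 differed that far on 1836 islands above and 1767 below, and mesoderm and replicate 2 on 300 and 980. At the 525 lower islands the median IMS was -0.093 in mesoderm, 0.93 and 0.75 in endoderm, 0.16 in EB5 and -0.027 in adult organs. At the 146 higher islands it was 0.46 in mesoderm, -0.30 and -0.16 in endoderm, and -0.019 in EB5. The typical lower island was thus near the methylated threshold in endoderm only, and the typical higher island was intermediate in mesoderm only.

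The excess of lower islands goes with dim input DNA on the mesoderm array. There the input was well above background at 72.8% of probes, against 99.9% and 87.0% on the endoderm arrays, endoderm replicate 1 having been read with an older version of the scanner software. Among islands with up to 25% of such bright probes, 24.8% were lower in mesoderm and 0.714% higher. Among those with over 75%, 0.864% were lower and 1.19% higher. With the scores recomputed from probes whose input was bright on all 3 arrays, 193 of 10990 islands (1.76%) lay above both endoderm arrays and 66 (0.601%) below, so the side with more islands turned. That filter also moved the median difference of all islands from 0.013 to 0.14. Of the 525 lower islands 164 could be scored this way: 131 were still below both endoderm arrays, 44 of them by 0.5. Of the 146 higher islands 115 could be scored: 112 were still above both, 59 of them by 0.5. What part dim input has in the lower islands was not tested further, and bright-input gaps are given beside named islands where at least 3 such probes remain.

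**Figure D2:**
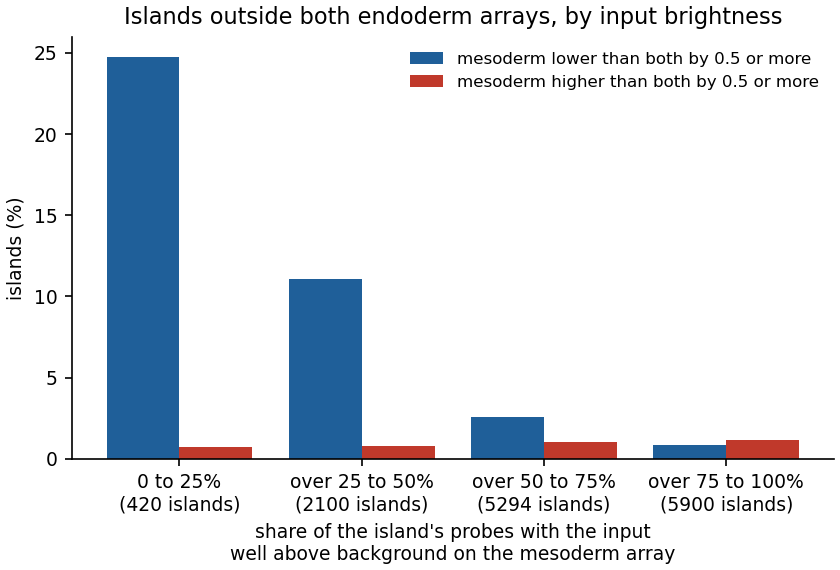
Share of islands on which mesoderm lies 0.5 or more below (blue) or above (red) both endoderm arrays. Islands are binned by the percentage of their probes whose input signal was well above background on the mesoderm array.

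The islands with more methylation in mesoderm belong to genes of varied function, led by Ptprs, which encodes a receptor-type tyrosine phosphatase that binds proteoglycans on neurons. Its IMS was 1.33 in mesoderm against -0.069 and 0.36 in endoderm, a gap of 0.97, or 0.94 with bright input, and all 7 of its probes lay above both endoderm arrays. Mesoderm alone was methylated there among the 3 arrays, while EB5 had 0.26 and adult organs a median of 1.02 (0.064 to 1.89). Cyth3, an exchange factor gene for Arf GTPases, had 0.92 in mesoderm and -0.033 and 0.11 in endoderm, and Agap1, the gene of a GTPase-activating protein, had 0.70 against -0.091 and -0.14. Their gaps were 0.82 and 0.79, and bright-input probes gave 0.82 and 0.78. An island goes by the gene that the array annotation gives it, and need not lie at the start of that gene. The probes of Ptprs begin 50423 bases after the start and those of Agap1 125483. The sorting nexin gene Snx20 showed 0.93 against 0.000095 and 0.11, with a bright-input gap of 0.79. At Cyth3 and Snx20 mesoderm was above 0.75 and endoderm close to 0, but with bright input mesoderm had 0.74 at Snx20. TT2 cells (0.91) and embryoid bodies (0.83) were above 0.75 at Cyth3 too, and cells treated with retinoic acid had 0.55. Adult organs had at most 0.082 at Cyth3 and 0.46 to 3.87 at Snx20. With normexp background correction, however, mesoderm was lower than the endoderm mean at Agap1 (-0.31) and Snx20 (-0.16). At Ptprs the difference from the endoderm mean shrank from 1.18 to 0.099.

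Car4, a membrane-anchored carbonic anhydrase gene, was more methylated in mesoderm and in ES cells than in adult tissue. The island had 1.37 in mesoderm, -0.12 and 0.68 in endoderm and 1.26 in EB5, but -0.45 to 0.28 across the 16 adult arrays, and its bright-input gap was 0.69. TT2 cells had 1.16 there, embryoid bodies 1.81 and cells treated with retinoic acid 1.26, so the high values are not particular to mesoderm and EB5. Mesoderm and EB5 were methylated, endoderm replicate 2 was just under the threshold, and endoderm replicate 1 and all adult arrays were low. Snai1 encodes the zinc-finger repressor that silences E-cadherin when epithelial cells turn mesenchymal, and its protein is a known product of early mesoderm. Its island was more methylated in mesoderm, at 1.02, than in endoderm (0.31 and 0.49) or EB5 (0.68). The gap was 0.54, or 0.59 with bright input, and adult organs ranged from 0.90 to 1.89. TT2 cells and embryoid bodies had 1.47 at Snai1, cells treated with retinoic acid 1.65 and teratomas 1.23 and 1.18, all above mesoderm. Fgfr1, the receptor gene for fibroblast growth factors, was below 0 in mesoderm, endoderm and EB5, with -0.43 in mesoderm and -0.93 and -1.003 in endoderm, a gap of 0.50 (0.54 with bright input). With normexp the difference from the endoderm mean shrank from 1.09 to 0.31 at Car4 and from 0.63 to 0.26 at Snai1.

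The promoters of Cyth3, Car4 and Snai1 are shown because the probes of these higher islands lie across the gene's start. The probes cover only part of each stretch. Each runs from 250 bases before the start to 50 after it and comes from RefSeq (GRCm38.p6): Cyth3 at chr5:143622197-143622496 on the plus strand, Car4 at chr11:84957504-84957803 on the plus strand and Snai1 at chr2:167537945-167538244 on the plus strand. Capitals mark each CG, the dinucleotide that carries methylation, which reads the same on both strands. Cyth3 has 21 CpG, Car4 15 CpG and Snai1 34 CpG, counts that 24.8%, 34.6% and 7.73% of the 32851 promoters in the table equal or exceed, where the median is 7. Of the 45 named islands with a gap of 0.5 or more, 27 belong to a gene with a promoter in that table.
Cyth3: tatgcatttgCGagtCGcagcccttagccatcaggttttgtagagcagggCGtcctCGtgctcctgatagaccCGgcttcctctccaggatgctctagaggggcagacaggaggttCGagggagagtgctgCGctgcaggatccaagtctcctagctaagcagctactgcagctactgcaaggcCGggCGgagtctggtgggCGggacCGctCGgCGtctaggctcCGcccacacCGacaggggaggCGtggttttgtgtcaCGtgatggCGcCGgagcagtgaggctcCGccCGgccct
Car4: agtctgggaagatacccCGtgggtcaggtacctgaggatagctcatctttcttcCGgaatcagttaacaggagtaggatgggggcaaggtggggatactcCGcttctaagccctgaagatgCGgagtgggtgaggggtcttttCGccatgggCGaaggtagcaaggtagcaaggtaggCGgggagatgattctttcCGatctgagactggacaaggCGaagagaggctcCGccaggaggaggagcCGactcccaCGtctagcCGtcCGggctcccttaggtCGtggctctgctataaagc
Snai1: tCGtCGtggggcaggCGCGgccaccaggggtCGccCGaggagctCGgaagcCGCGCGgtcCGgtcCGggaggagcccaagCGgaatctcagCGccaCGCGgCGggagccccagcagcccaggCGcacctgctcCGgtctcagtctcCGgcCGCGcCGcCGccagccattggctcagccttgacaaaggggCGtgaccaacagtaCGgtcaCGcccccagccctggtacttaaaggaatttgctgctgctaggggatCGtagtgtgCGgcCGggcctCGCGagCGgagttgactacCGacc

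Other islands among the 12 with the largest gaps above endoderm were low in endoderm, and only that of Dsc2 was above 0.75 in mesoderm. Nfatc2, a calcium-responsive transcription factor gene of T cells, had 0.21 in mesoderm and -0.59 and -0.50 in endoderm, with a bright-input gap of 0.80. Dsc2, which encodes a desmosomal cadherin, had 0.80 against -0.037 and 0.069, and 0.46 as its bright-input gap. Both kept mesoderm above endoderm with bright input. The splicing factor gene Syf2 did not: its gap of 0.81 went to 0. Smaller bright-input gaps remained at the lipase gene Pnpla2 (0.31 from 0.86), the autophagy gene Gabarapl2 (0.35 from 0.69) and the RNA-binding protein gene Elavl1 (0.15 from 0.69). Rapgef6, an exchange factor gene for Rap GTPases, could not be scored that way and had a gap of 0.67, and from the gene lists Ltn1, a ubiquitin ligase gene of ribosome quality control, had 0.51, or 0.47 with bright input. Mesoderm itself had 0.30 at Pnpla2, 0.24 at Syf2, 0.51 at Gabarapl2 and 0.46 at Rapgef6, and was below 0 at Elavl1 (-0.53) and Ltn1 (-0.18). Of the 15 named higher islands, the lowest limma adjusted p was 0.771. With normexp, mesoderm was lower than the endoderm mean at Pnpla2 (-0.044), Dsc2 (-0.069), Rapgef6 (-0.64) and Ltn1 (-0.24) too. The difference shrank from 0.83 to 0.10 at Elavl1, from 0.75 to 0.36 at Nfatc2 and from 0.82 to 0.52 at Syf2.

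Among the 12 largest gaps below endoderm, that of Mab21l2 rests on the most probes. The gene, which is needed for the eye and the body wall, had -0.26 in mesoderm, 1.03 and 1.23 in endoderm and -0.30 in EB5. Mesoderm and EB5 were thus below 0 and both endoderm arrays above 0.75, and 10 of 11 probes lay below both endoderm arrays. The gap was -1.29, and the 7 bright-input probes gave -1.08. In adult organs the same island ran from -0.11 to 2.71, with a median of 1.53. Tbx3, a T-box factor gene active in ES cells and in limb and heart mesoderm, had the same order: -1.10 in EB5, -0.35 in mesoderm and 0.53 and 0.90 in endoderm, with a gap of -0.88 (-0.59 with bright input). The adult median was 1.94, but the lowest adult array had -0.088, so endoderm lay within the adult range. With normexp the difference from the endoderm mean was -0.89 at Mab21l2 and -0.60 at Tbx3, where it was -1.39 and -1.07.

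Wdr5b, an intronless relative of the histone methyltransferase subunit gene Wdr5, was high in endoderm only. It had -0.26 in mesoderm, 0.87 and 0.86 in endoderm, -0.55 in EB5 and -1.05 to 0.044 in adult organs. The gap was -1.12, or -0.80 with bright input, and no adult array reached the endoderm values. With normexp its difference from the endoderm mean went from -1.13 to -0.56. Nnat, an imprinted gene whose maternal allele is methylated in the body, had 0.60 in mesoderm, 1.28 and 1.27 in endoderm, 0.75 in EB5 and 2.13 to 3.20 in adult organs. Mesoderm, endoderm and EB5 were below every adult array there, and mesoderm was the lowest of these 4 arrays. Its bright-input gap was -0.27, under the 0.5 used to name islands.

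The promoters of Wdr5b and Nnat are printed because their islands carried more methylation in endoderm than in mesoderm. The probes of Nnat lie across the start, and those of Wdr5b begin 13 bases after it, so most of the Wdr5b stretch has no probe. They are RefSeq sequences of GRCm38.p6, Wdr5b at chr16:36040940-36041239 on the plus strand and Nnat at chr2:157559828-157560127 on the plus strand, with each CG in capitals. Wdr5b has 13 CpG and Nnat 17 CpG, reached by 37.9% and 31.4% of the promoters.
Wdr5b: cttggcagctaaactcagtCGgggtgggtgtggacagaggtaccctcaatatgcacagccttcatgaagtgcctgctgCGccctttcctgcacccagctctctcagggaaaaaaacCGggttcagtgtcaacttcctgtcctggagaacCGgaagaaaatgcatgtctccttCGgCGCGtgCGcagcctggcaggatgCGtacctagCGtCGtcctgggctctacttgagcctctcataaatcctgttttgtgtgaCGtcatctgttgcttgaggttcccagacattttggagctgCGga
Nnat: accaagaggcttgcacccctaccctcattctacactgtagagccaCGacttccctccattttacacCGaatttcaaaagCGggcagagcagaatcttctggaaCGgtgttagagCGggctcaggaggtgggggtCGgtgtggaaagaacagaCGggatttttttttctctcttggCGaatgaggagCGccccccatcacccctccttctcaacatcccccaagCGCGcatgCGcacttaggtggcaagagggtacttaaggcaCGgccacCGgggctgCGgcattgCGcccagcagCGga

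Bmp4, Meis2 and Nkx6-1, also among the 12 largest gaps below endoderm, have few bright probes. Bmp4, a ligand that induces mesoderm, had -1.30 in mesoderm against 0.26 and 0.13 in endoderm (gap -1.43), with bright input at 2 of 5 probes. Meis2, a homeobox cofactor of Hox proteins, had -0.28 against 1.73 and 1.02, also with 2 of 5. That island is annotated as downstream of Meis2, with probes from 209821 bases after its start. Nkx6-1, a factor of motor neurons and pancreatic beta cells, had -0.77 against 0.48 and 0.37. The probes of Bmp4 and Nkx6-1 begin 4528 and 4850 bases after the starts of these genes. In all 3, mesoderm was below 0 and endoderm above it, and none could be scored with bright input. Their differences from the endoderm mean, -1.49, -1.66 and -1.19, were -0.40, -0.72 and -0.66 with normexp. For Bmp4, Meis2, Mab21l2 and Pcdhgb8 the limma adjusted p was 0.374, the lowest among the named islands.

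At another group endoderm was far above 0.75 and mesoderm intermediate or methylated. Adcyap1, the gene of the neuropeptide PACAP, had 1.02 in mesoderm, 2.68 and 2.16 in endoderm and 0.43 in EB5, against -1.18 to 0.42 in adult organs. Nkx6-2, a homeobox gene of the nervous system, had 0.54 in mesoderm and 1.75 and 1.97 in endoderm, where its adult range was -0.94 to 0.51. Both islands were above the adult range in all 3 arrays. Usp44, a deubiquitinase gene, had 1.36 against 2.51 and 2.55, and Hoxc4 0.73 against 1.65 and 1.75. Rhobtb1 and the forkhead gene Foxp4 were methylated on all 3 arrays and in EB5, with 0.95 and 1.06 in mesoderm and at least 2.03 and 2.05 in endoderm. The Foxp4 probes begin 51638 bases after the start of the gene. Bright input was found at 2 of 5 probes for Adcyap1, Usp44 and Hoxc4 and at 1 of 5 for Rhobtb1 and Foxp4. None of these islands could be scored with bright input. Pdha2, a testis-specific enzyme gene, had 1.21 against 2.34 and 2.38, but its gap of -1.13 became 0 with bright input, and that of Nkx6-2 became -0.38. At the protocadherin gene Pcdhgb8 mesoderm was near 0, with -0.059 against 1.49 and 1.30, with bright input at 1 of 6 probes. Its difference from the endoderm mean went from -1.45 to -0.91 with normexp.

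**Figure D3:**
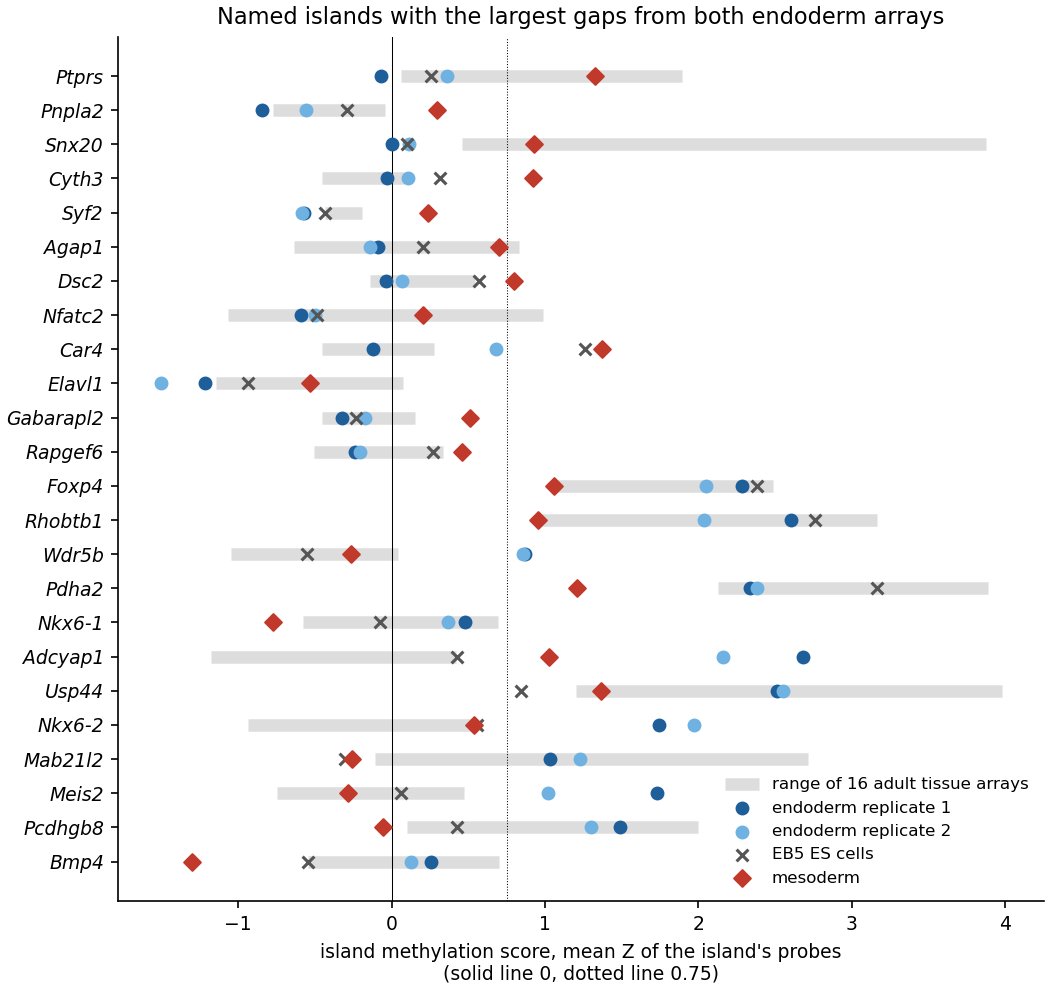
Island methylation score of the 12 named islands with the largest gap above and the 12 with the largest gap below both endoderm arrays. Diamonds show mesoderm, circles the endoderm replicates, crosses EB5 and grey bars the range of 16 adult arrays.

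EB5 gives a reference for the lower islands that rest on bright probes. With at least 5 bright-input probes, 11 islands with a gene name lay 0.5 or more below endoderm on both scorings, a set chosen after the values were seen. EB5 was nearer to mesoderm than to the endoderm mean on 11 of the 11, and mesoderm lay between EB5 and both endoderm arrays on 9. On the other 2, Cog8 and Dbx1, mesoderm was below EB5, with -0.98 against -0.89 and -1.30 against -1.03. Ptger2, a receptor gene for prostaglandin E2, had -0.82 in EB5, 0.32 in mesoderm and 1.26 and 1.73 in endoderm, while adult organs stayed at -1.37 to -0.32. Stx1a, which encodes a synaptic membrane protein, went from -0.34 through 0.49 to 1.25 and 1.77, with an adult median of 2.03. At both, mesoderm held an intermediate level. The remaining members were Mab21l2, Tbx3, App, Hand1, Cog8, Dbx1, Myorg, Kat2a and Gm4793.

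App, the amyloid precursor gene, had 0.32 in EB5, 1.89 in mesoderm and 2.90 and 2.54 in endoderm, against 2.32 to 3.34 in adult organs. The App probes begin 93403 bases after the start of the gene. The histone acetyltransferase gene Kat2a had -0.23 in EB5, 0.61 in mesoderm and 1.43 and 1.73 in endoderm, and its adult median was 0.99. On 7 of the 11 islands the adult median was above 0.75 as well. Among all 525 lower islands EB5 was nearer to mesoderm on 223 (42.5%), and mesoderm lay between on 116, so the order is not general. Of the 15 higher islands chosen in the same way, EB5 was nearer to mesoderm on 4 and mesoderm lay between on 1. Among all 146 higher islands these were 57 (39.0%) and 15.

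Those 15 include Ptprs, Snx20, Cyth3, Agap1, Car4, Snai1 and Fgfr1, and 8 that the rule for named genes does not reach. Mbnl1, a splicing regulator gene, had 0.95 in mesoderm, 0.35 and 0.27 in endoderm and -0.34 in EB5. Cldn11, a tight junction gene of myelin and testis, had 2.05 in mesoderm, 1.18 and 1.53 in endoderm and 2.42 in EB5, against -0.096 to 0.53 in adult organs. Mesoderm was above 0.75 at both, as was EB5 at Cldn11. The neurofilament gene Nefh, with 10 bright probes, had 0.30 in mesoderm and -0.39 and -0.25 in endoderm. Dicer1, the ribonuclease gene of microRNA maturation, had 0.31 against -0.74 and -0.25. The semaphorin gene Sema6b, the endothelial gene Rasip1 and Tmem192 had gaps of 0.59, 0.54 and 0.63, and Sall3, a zinc-finger gene methylated on all 3 arrays, 0.51.

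The genes that define the sort had no gap of 0.5 or more, but their values depend on the background correction. Gsc, a homeobox gene of the primitive streak on which both gates select, had 0.095 in mesoderm and -0.17 and -0.14 in endoderm at its larger island of 14 probes, a gap of 0.23 (0.16 with bright input). A second Gsc island, of 3 probes, had -0.10 in mesoderm and 0.34 and -0.27 in endoderm. The 18-probe island in the body of Sox17, the endoderm factor that only the endoderm gate selects, had -0.21 against -0.029 and -0.48, a gap of 0. The 8-probe island upstream of Sox17 had -0.19 in mesoderm, 0.38 and 0.18 in endoderm and -0.23 in EB5. There the gap was -0.37, and -0.82 over its 4 bright-input probes, which had -0.40 in mesoderm and 0.42 and 0.41 in endoderm. The island of Cdh1, which encodes E-cadherin, had -0.52 against -0.81 and -0.50, a gap of 0 that became 0.32 with bright input. With normexp the differences from the endoderm mean were -0.51 and -0.64 at the Gsc islands, from 0.25 and -0.13, and 0.79 at Cdh1, from 0.13. The median of the 5 islands was then -0.51, from 0.044, where that of all islands was -0.072. In the main scoring none of these islands came near 0.75 on any of the 3 arrays. Island methylation is not expression, so these values do not check the sort.

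Over all islands, 1.06% lay 0.5 above both endoderm arrays and 3.83% below. Of the markers set down for definitive endoderm, 9 of 10 genes had an island, with 21 islands in all, of which 0 lay 0.5 above both endoderm arrays and 1 below, a 3-probe island of Gata6. For mesoderm it was 10 of 12 genes and 16 islands, with 1 above (Snai1) and 3 below. The 3 were an island of Foxf1, with 3 probes, and islands in the body and upstream of Hand1, a factor of heart and extraembryonic mesoderm. The Hand1 body had 0.53 in mesoderm and 1.39 and 1.07 in endoderm, with all 5 probes bright, and EB5 had 0.024. The downstream island of Foxf1, a factor of visceral mesoderm, was the reverse, with 1.49 against 0.86 and 1.04. Foxa1, a pioneer factor gene of endoderm, had 0.88 in mesoderm, 1.32 and 1.66 in endoderm and 0.087 in EB5 at its 9-probe island, so all 3 differentiated samples were above 0.75 there. The islands of T and Eomes with 7 or 8 probes were below 0 on all 3 arrays.

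Markers of other cells that a sort could let through were also read. For ES cells, 2 of 6 genes had islands, Esrrb and Klf4, and none of their 3 islands lay 0.5 outside endoderm. The 5-probe island of Esrrb had 1.75 in mesoderm and 1.93 and 1.92 in endoderm, but -0.28 in EB5 and 2.44 as the adult median, so all 3 differentiated arrays stand with adult tissue and apart from EB5. For neuroectoderm, 6 of 6 genes had 13 islands, of which 0 were above and 3 below endoderm: islands of 3 and 4 probes at Pax6 and 1 of 4 probes at Sox3. With so few islands these counts were not tested against the 1.06% above and 3.83% below over all islands.

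The share of lower islands differed between gene lists. Of 106 islands of neuroectoderm factors, 15 (14.2%) lay 0.5 or more below both endoderm arrays and 0 above, against 3.83% below over all islands. Mesoderm factors had 8 of 71 (11.3%) below and 1 above, endoderm factors 3 of 45 (6.67%) and 0, and islands of the Hox clusters 5 of 66 (7.58%) and 0. Pax genes had 4 of 23 below, Dlx genes 2 of 12, Lhx and Lmx genes 4 of 29, pluripotency genes 3 of 22 and T-box genes 3 of 28. Wnt pathway genes had 1 of 73, Gata genes 1 of 16 and Eya genes with their homeobox partners 0 of 18. With bright input the counts below were 1 of 76 for neuroectoderm factors, 1 of 52 for mesoderm factors, 2 of 35 for endoderm factors, 2 of 44 for Hox and 0 of 15 for Pax. Lhx and Lmx genes had 3 of 24 (12.5%), Dlx genes 1 of 8 (12.5%), pluripotency genes 1 of 16, T-box genes 1 of 18 and Eya genes with their partners 1 of 16, against 0.601% of all islands. The last list also had 2 of 16 above (12.5%), against 1.76% of all islands. Wnt pathway genes had 0 of 59 and Gata genes 0 of 13. The input was bright on mesoderm at 64.3% of the probes of the average neuroectoderm island and 60.4% for Hox, against 72.3% over all islands.

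**Figure D4:**
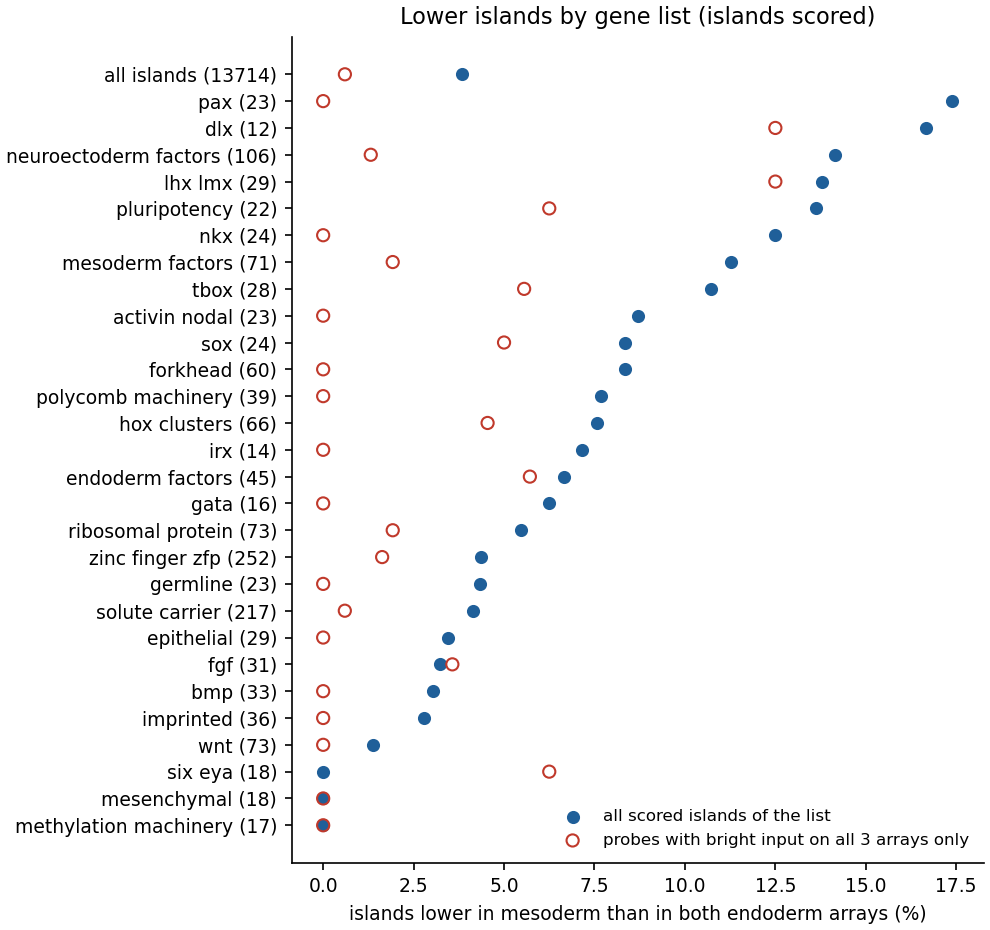
Share of each gene list's islands that lie 0.5 or more below both endoderm arrays in mesoderm. Filled circles use all scored islands, open circles only probes with bright input on all 3 arrays, and the number of islands is in brackets.

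Medians show the same lists on a smaller scale. The median of mesoderm minus the endoderm mean was -0.24 for neuroectoderm factors, -0.28 for Hox islands and -0.31 for Pax islands, where all islands had 0.013. Against endoderm replicate 1 alone they were -0.33, -0.40 and -0.35, and against replicate 2 -0.12, -0.15 and -0.16. The medians against the endoderm mean stayed negative under every scaling tried. With bright input they were -0.041, -0.090 and -0.075, where all islands had 0.14. For mesoderm factors the median was -0.15 (-0.21 against replicate 1, -0.066 against replicate 2), which turned to 0.041 with bright input. For endoderm factors it was -0.059 (-0.18 against replicate 1, 0.040 against replicate 2), which turned to 0.064. For germ-line genes the mesoderm median of 1.92 lay between the endoderm medians of 1.81 and 2.10. Of their 23 islands 0 lay 0.5 above endoderm and 1 below, where 3.83% of all islands are below, and the median difference was 0.20 (0.43 with bright input). With bright input 2 of 20 lay above and 0 below, against 1.76% above over all islands. With normexp 7 lay above and 3 below, against 674 and 617 of all 13714 islands. Islands of methylation enzymes and their partners had 0 of 17 outside endoderm by 0.5, against 1.06% above and 3.83% below over all islands. With bright input 1 of 13 (7.69%) lay above endoderm, against 1.76% of all islands.

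List members with gaps of 0.5 or more were mostly of moderate size. Otx2, a homeobox gene of the anterior embryo, had 0.42 in mesoderm, 0.93 and 1.07 in endoderm and -0.24 in EB5, with a bright-input gap of -0.47. Endoderm alone was above 0.75 there, and adult organs had -0.68 to 0.25. Hoxb1 had 0.32 in mesoderm and 0.86 and 0.94 in endoderm, and Hoxb5 -0.65 against 0.14 and -0.14, with bright-input gaps of -0.35 and -0.27. Their differences from the endoderm mean, -0.57 and -0.65, shrank to -0.12 and -0.15 with normexp. Foxd3, a neural crest and ES cell factor, had -0.99 against 0.19 and -0.078, with bright input at 2 of 7 probes, too few to score. Sox2, the pluripotency and neural factor, had -0.66 in mesoderm but 1.01 and -0.060 in endoderm at an island some kilobases upstream that has no probe bright on all 3 arrays. There the endoderm arrays differed more from each other than replicate 2 did from mesoderm.

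The muscle and heart factor gene Mef2c had a gap of -0.67 and the activin receptor gene Acvr2a -0.61, the latter 0 with bright input. Dlx3 and Dlx5, homeobox genes of limb and craniofacial tissue, had -0.55 and -0.56, and the germ-cell gene Tex11 -0.53. With bright input the gap was -0.22 at Dlx3 and -0.17 at Tex11. Ribosomal protein genes, taken as a housekeeping group, had 4 of 73 islands lower, among them Rps20 (-0.73), Rps4x (-0.64) and Rps9 (-0.57), with 1 of 52 lower on bright input. Over all islands these shares are 3.83% and 0.601%. The bright-input gap was 0 at Rps20 and -0.35 at Rps9. The zinc transporter gene Slc30a3 had -0.56 (-0.38 with bright input) and the zinc-finger gene Zfp974 -0.62. Mef2c, Dlx5, Rps4x and Zfp974 could not be scored with bright input. With normexp the difference from the endoderm mean went from -0.76 to -1.75 at Tex11, and shrank from -0.67 to -0.25 at Dlx3, -0.85 to -0.46 at Dlx5 and -0.91 to -0.55 at Acvr2a. It shrank from -0.88 to -0.33 at Rps20, -0.83 to -0.47 at Rps9 and -1.04 to -0.64 at Foxd3. Rps9 and Slc30a3 changed sign under 1 scoring each: 0.029 for Rps9 with the deposited table and 0.023 for Slc30a3 where both channels had to be bright.

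Adult organs offer a second reading of the same islands. Islands below 0 on all 16 adult arrays numbered 4059. Of these, mesoderm was above 0.75 on 51 (1.26%), endoderm replicate 1 on 76 (1.87%) and replicate 2 on 61 (1.50%). Without pancreas replicate 2 there were 4176 such islands, with 58, 85 and 70. On bright input the order changed, to 64 in mesoderm and 59 and 58 in endoderm of 3827.

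All 3 arrays shared 29 of these adult-low islands, 15 were above 0.75 in both endoderm arrays and not in mesoderm, and 6 in mesoderm only. On bright input these were 3 and 9, and on the deposited scores 3 and 4, so which side has more depends on the scoring. Klhl9, a ubiquitin ligase adaptor gene chosen from the 6 after its values were seen, had 0.89 in mesoderm and 0.52 and 0.53 in endoderm. Mesoderm stood above endoderm by less than 0.5 at each of the 6, so these are crossings of the threshold, not islands apart from endoderm.

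Adult organs of mesodermal origin (kidney, muscle, spleen) were also set against those of endodermal origin (colon, liver, lung, pancreas). These share no array with the cultured cells, but endoderm replicate 2 was run on the slide of pancreas replicate 1, and pancreas replicate 2 has the input profile named above. In limma on organ means, 0 of 13616 islands (0%) passed an adjusted p under 0.05 and 543 had an unadjusted p under 0.05. Without pancreas these were 0 and 729, and without spleen 0 and 247. At Mab21l2 the organ difference was -0.31 and at Tbx3 -0.33, where the cultured cells had -1.39 and -1.07 for mesoderm minus the endoderm mean. At Ptprs it was 0.31 against 1.18, and at Snai1 0.089 against 0.63. Over the named islands with a gap of 0.5 or more, the organ difference had the sign of the difference in culture on 6 of 15 higher and 18 of 30 lower islands. Over all islands with such a gap it did so on 63 of 143 and 275 of 521, and over those chosen by bright input on 10 of 15 and 8 of 11. At Nnat, for example, the signs were opposite, with 0.30 in organs and -0.67 in culture.

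The input channel, which holds genomic DNA before the antibody step, differs between arrays by chromosome. Against adult organs, its median log2 signal on chromosome 8 was 0.36 in mesoderm, 0.45 and 0.44 in endoderm and 0.44 in EB5, while 15 adult arrays lay between -0.024 and -0.0050. Samples from other ES cell lines were high there too, with 0.31 in TT2, 0.37 in embryoid bodies, 0.39 after retinoic acid and 0.34 and 0.35 in teratomas. On chromosome 14 from 60 Mb on, a split placed after the data were seen, mesoderm had 0.31 and endoderm replicate 2 had 0.33, but endoderm replicate 1 had -0.065 and EB5 0.088. Mesoderm and endoderm replicate 2 were high there and endoderm replicate 1 was not. On the X chromosome mesoderm had -0.10, endoderm -0.28 and -0.24, and EB5 -0.29.

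**Figure D5:**
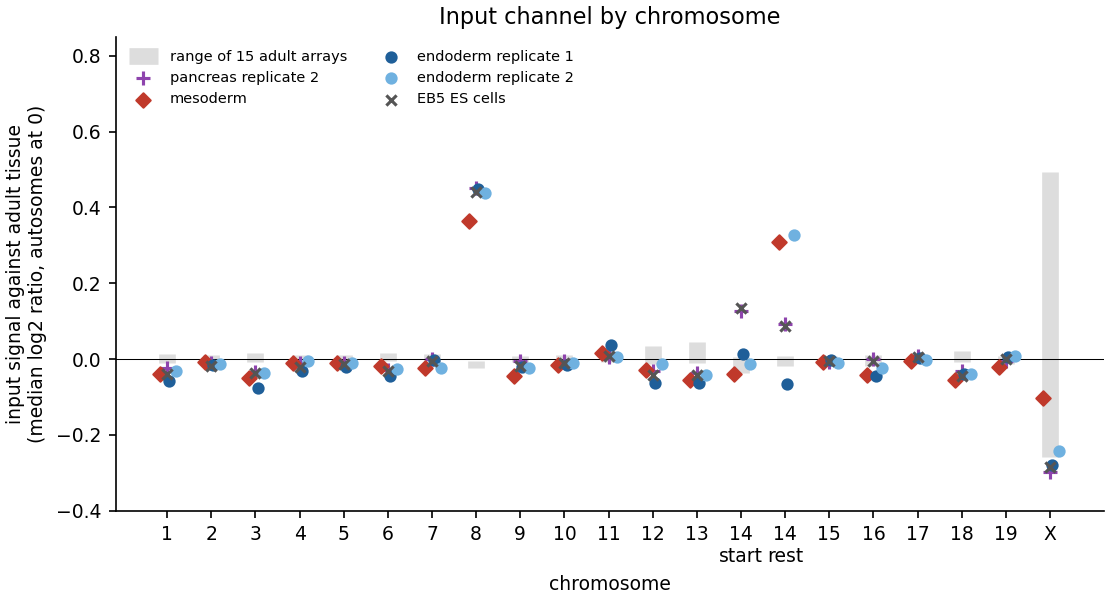
Median log2 input signal of each chromosome against the adult median, with autosomes set to 0. Chromosome 14 is divided at 60 Mb, and the grey bars give the range of 15 adult arrays.

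Higher islands were most frequent on chromosome 8, with 24 of 791 (3.03%) against 1.06% of all islands, and 4 of the 15 named higher islands lie there: Snx20, Elavl1, Gabarapl2 and Fgfr1. With Z centred on the median of each chromosome, 9 of the 791 were higher (1.14%), against 0.773% of all islands. Chromosome 7 then had the most, with 27 of 993 (2.72%). The X chromosome had 26 of 380 islands lower (6.84%, against 3.83% of all islands) and 0 higher, and its median difference was -0.13. After centring it had 17 lower (4.47%) and 1 higher, against 4.61% lower and 0.773% higher over all islands. Among the named lower islands only Rps4x and Tex11 lie on the X chromosome. Of the 184 islands on chromosome 14 from 60 Mb on, 0 were higher and 8 lower. What part the input level of a chromosome has in these counts was not tested.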

How the data were processed

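Methylated DNA immunoprecipitation was read on 2-colour mouse CpG island arrays, with Cy3 for input and Cy5 for antibody-bound DNA. Per the file headers, the authors' scanner software subtracted background, normalised the dyes and deposited log10 ratios of bound over input, with processed signal intensity and probe quality marks for each channel. The authors also deposited a table of processed scores, with column medians of -0.125 (mesoderm), -0.107 and -0.135 (endoderm 1 and 2), whose centring is not stated and which for these 3 arrays covers only probes bright in both channels. It served as an alternative.

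Log ratios of probes without quality marks (88702 in mesoderm, 97615 and 97617 in endoderm) were standardised on each array. Islands were runs of at least 3 probes with gaps of up to 500 bases, and were scored by mean Z. Gene names in the files were updated to current symbols. The genome build of the probe positions is not named in the headers of these arrays.

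Mesoderm was tested against endoderm with limma 3.58.1 in R 4.3.3, with Benjamini-Hochberg adjustment over all islands and the lone mesoderm array assumed to vary like endoderm. Other steps used Python 3.11.15, pandas 2.3.3, NumPy 2.4.6 and matplotlib 3.10.9. The fits were tested on simulated data. Named islands are the 12 with the largest gap on each side and up to 3 members of each of 29 gene lists with a gap of 0.5 or more. These have at least 5 probes, with 1 island per gene. All 5 islands of the sorting genes Gsc, Sox17 and Cdh1 were also named, whatever their values or number of probes. The members and lists were chosen with earlier results of these data known. Alternatives changed the scaling, background correction, source table, probe filters, island rule, spread and arrays. Results for a few withheld items are not reported here.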

Additional observations from a re-analysis of the deposited data

Results flagged for a closer look

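Apart from marking bright probes, the input channel enters the comparison only within the log ratio. On its own it carries a signal above that of 15 adult reference arrays in the regions and arrays given next. On chromosome 8 its median log2 signal against adult organs was 0.363 in mesoderm, 0.449 in endoderm replicate 1 and 0.438 in endoderm replicate 2, where the highest of 15 adult arrays had -0.0050. On chromosome 14 from 60 Mb on it was 0.308 in mesoderm and 0.328 in endoderm replicate 2, where the highest of the same 15 adult arrays had 0.0087. Pancreas replicate 2, the remaining adult array, had 0.450 on chromosome 8 and 0.093 on chromosome 14 from 60 Mb on. The cause was not tested in any of these.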

How the results depend on the processing

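The limma count of 0 stayed 0 with MAD scaling, unscaled log2 ratios, quantile normalization, normexp, the deposited table, bright input, narrower or wider gaps between probes, no sex chromosomes, trended or pooled variance. It was 1 with only common probes, 8 with island medians, 9 with at least 5 probes, where limma's prior degrees of freedom were 140 and not 13.2, and 0 to 3 without 1 endoderm replicate, the lone replicate being assumed to vary like other groups; the test of the methods listed 555 unadjusted. Islands above both endoderm arrays numbered 674 with normexp, 73 with the deposited table, 327 with medians, 65 with at least 5 probes, 300 to 1836 without 1 endoderm replicate, and 1245 or 0 at a gap of 0.25 or 1. Islands below numbered 57 with the deposited table, 66 with bright input, 184 with at least 5 probes, 980 to 1767 without 1 replicate, and 1545 or 58 at a gap of 0.25 or 1. The higher share of all islands outside was 21.8%, but 52.2% with normexp, 56.2% with the deposited table and 74.5% with bright input. It was 35.9% with medians, 51.0% without endoderm replicate 2, and 44.6% or 0% at a gap of 0.25 or 1. Bright signal in both channels gave 79.0% and chromosome centring 14.4%. Normexp gave SDs of 0.889 (mesoderm minus endoderm 1), 0.582 (minus endoderm 2) and 0.868 (between endoderm arrays), and log2 ratios not divided by the array SD gave 0.448 and 0.654 for the last pair of these. Adult-low islands above the threshold in mesoderm, endoderm 1 and endoderm 2 numbered 85, 133 and 99 at 0.5, 31, 44 and 41 at 1, 163, 217 and 175 with adult arrays below 0.25, 24, 47 and 33 with MAD scaling, 14, 35 and 79 with normexp, and 38, 50 and 38 with the deposited table. Differences that changed sign at named islands with a gap of 0.5 or more were, with normexp, Pnpla2 -0.044, Snx20 -0.16, Agap1 -0.31, Dsc2 -0.069, Rapgef6 -0.64 and Ltn1 -0.24, and, with the deposited table, Rps9 0.029. At the sorting genes, whose gaps were smaller, Gsc turned to -0.51 with normexp, its smaller island to 0.18 with wider gaps between probes, Sox17 to -0.021 with MAD scaling and -0.0090 with chromosome centring, and Cdh1 to -0.0061 with that centring. Alternatives chosen after seeing the data were chromosome centring, which called 2 islands, leaving out log ratios of exactly 0, which called 0, the pooled spread on bright input, which called 0, and bright signal in both channels, which called 0, left 47 islands below and turned Slc30a3 to 0.023. So were the adult counts without pancreas replicate 2 and on bright input. The causes of these moves were not tested. The organ comparison had 0 calls in each alternative. No paired analysis was possible because mesoderm has 1 array. Of the 3 arrays compared, the share of probes well above background in both channels is lowest on mesoderm (71.5%), where 4254 log ratios (4.80%) are exactly 0.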

Other observations

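Some islands set the endoderm replicates apart and not the cell types. Rcbtb1, on chromosome 14, had 1.34 in mesoderm and 1.35 in endoderm replicate 2, but -0.36 in endoderm replicate 1 and -0.12 in EB5, with adult organs from -0.46 to 0.039. The kinase gene Stk4 was high in endoderm replicate 1 alone, with 1.59, against -0.60 in mesoderm, -0.94 in endoderm replicate 2 and -0.84 in EB5. The zinc-finger gene Zfp61 had the same form, with 2.04 in endoderm replicate 1, -0.91 in mesoderm and -0.94 in endoderm replicate 2. These 3 islands were the ones limma called without endoderm replicate 2, and their gap from both endoderm arrays is 0. They were chosen after their values were seen.

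The 2 largest gaps below endoderm are on islands with 3 probes. That of Fat1, a giant cadherin gene, had 0.47 in mesoderm, 3.16 and 2.50 in endoderm, 2.86 in EB5 and 0.73 to 3.12 in adult organs, with bright input at 1 of 3 probes and the lowest limma adjusted p of all islands, 0.127. The helicase gene Helb had 0.93 in mesoderm and 2.83 on both endoderm arrays, with bright input at 1 of 3 probes. Mesoderm was below both endoderm arrays and EB5 at each, and both were chosen after their values were seen.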
